A study of Mus musculus with 78 samples.

Results

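Mitochondrial DNA is transcribed and copied entirely by proteins that are encoded in the nucleus, and 10 nuclear genes for this work were followed in mouse embryonic stem cells (mESCs) that lost the transcription factor ZFP143. They were chosen by name: Tfam, Tfb1m, Tfb2m, Polrmt, Tefm, Polg, Polg2, Twnk, Lrpprc and Slirp, 10 of the 55401 gene IDs in each count table, and all 10 passed the filter on low counts in all 3 tables. TFAM packs mitochondrial DNA and bends its promoters, TFB2M melts the promoter, and POLRMT is the RNA polymerase. TEFM keeps that polymerase elongating, and TFB1M methylates the small ribosomal RNA of the mitochondrial ribosome. POLG is the catalytic subunit of the mitochondrial DNA polymerase, POLG2 its accessory subunit and Twinkle, the product of Twnk, the helicase that opens the DNA ahead of it. LRPPRC and SLIRP form a complex that stabilises mitochondrial mRNAs.

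The cells were E14TG2a mESCs in which both copies of Zfp143 ended in an FKBP-2xHA-P2A-GFP cassette, so that 500 nM dTAG-V1 degraded the protein. All groups carried this allele, in lines grown from sorted single cells, and DMSO was the control. TT-seq, which sequences RNA labelled with 2 mM 4-thiouridine for 10 min and so reads nascent transcription, was done in DMSO and with dTAG-V1 for 2, 6 or 24 h, and poly(A) RNA-seq in DMSO and after 24, 48 and 72 h. A separate RNA-seq experiment had cells kept for 24 h in DMSO or dTAG-V1, without retinoic acid (RA) or followed by 24 h of RA under the same treatment. The RA libraries were thus collected at 48 h, in a differentiation medium that no library had without RA, so RA, the medium and the additional day cannot be told apart. Each of the 12 groups had 2 libraries, which the study calls biological replicates, and 1 list of ZFP143 ChIP-seq peaks gave binding.

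Total counts were 9721568 to 16532077 per TT-seq library, 10261851 to 15316700 in the RNA-seq time course and 13890761 to 27089033 in the RA experiment, and no pair of libraries held identical values. The Zfp143 transcript was higher, not lower, in all depleted libraries (95.5 and 90.8 CPM at 24 h against 43.0 and 44.3 in DMSO in the RNA-seq), and since dTAG-V1 acts on the protein this level checks no label. All 8 embryonic stem cell markers, Pou5f1 and Nanog among them, were detected, with a summed level of 6520 to 6725 CPM in RNA-seq DMSO, 4216 to 4265 CPM at 72 h, 7085 to 7227 CPM in DMSO before RA and 1365 to 1947 CPM after it. The 3 fibroblast markers summed to at most 5.52 CPM in the time course but reached 25.9 to 26.2 CPM in dTAG-V1 with RA. The 4 endoderm markers summed to 5.60 to 5.99 CPM in RNA-seq DMSO, 13.4 to 14.0 CPM at 48 h and 10.8 to 11.8 CPM at 72 h, and in TT-seq to 7.47 to 11.1 CPM in DMSO and 16.03 to 16.82 CPM at 24 h. In the RA experiment they went from 3.62 to 4.13 CPM in DMSO before RA to 19.7 to 21.5 CPM with RA in DMSO and 43.0 to 43.6 CPM with RA in dTAG-V1. The 3 neural markers moved in different directions. Tubb3, a neuronal tubulin gene, made up most of their sum in the stem cells and read 116.9 and 121.5 CPM in RNA-seq DMSO against 51.9 and 52.0 at 24 h and 72.7 and 67.0 at 72 h, while Sox1 went from 2.11 and 1.92 CPM to 10.7 and 8.94 at 72 h and Pax6 stayed at or below 1.14 CPM. With RA in DMSO Tubb3 went from 161.9 and 173.4 CPM to 9.23 and 10.4, but Pax6 went from 0.840 and 0.630 to 49.1 and 54.7 and Sox1 from 12.1 and 11.3 to 26.9 and 29.9. With RA in dTAG-V1 Pax6 reached 12.3 and 14.1 CPM. The part of these marker changes in the results was not tested. In the first RNA-seq DMSO library, the non-coding gene CT010467.1 took 3.59% of counts, against 0.472% to 0.716% in the other 7 libraries of that table.

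ZFP143 is a zinc finger activator that binds promoters close to transcription starts. A peak lay at the promoter of 4 of the 10 genes, Tfam, Tfb1m, Polrmt and Lrpprc, beside 9.86% of protein-coding genes (2171 of 22028). That share includes genes too low to test, while all 10 members passed the filter on low counts. The share among tested genes was not computed. A promoter counted as bound when a peak reached into the 2000 bp before or the 1000 bp after a transcript start, with its centre no more than 2000 bp from that start. The peak of Lrpprc (chr17:84790438-84791145 in mm10) had an 87.4-fold enrichment over input, rank 181 of 3189 peaks, and its summit lay at -309 bp, counted from the start with negative values upstream. The peak of Polrmt (chr10:79746352-79746905) had 52.6-fold enrichment, rank 603, with the summit at -64 bp. The peak of Tfam (chr10:71237710-71238284) had 34.7-fold enrichment, rank 1078, with the summit at 250 bp, inside the gene. The peak of Tfb1m (chr17:3557686-3557930) had 4.35-fold enrichment, rank 3174, and its summit lay at -102 bp. Binding thus spanned nearly the whole list by rank, and the Tfb1m peak was among its weakest: the median enrichment of all peaks was 20.8-fold and the lowest 3.64-fold.

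**Figure D1:**
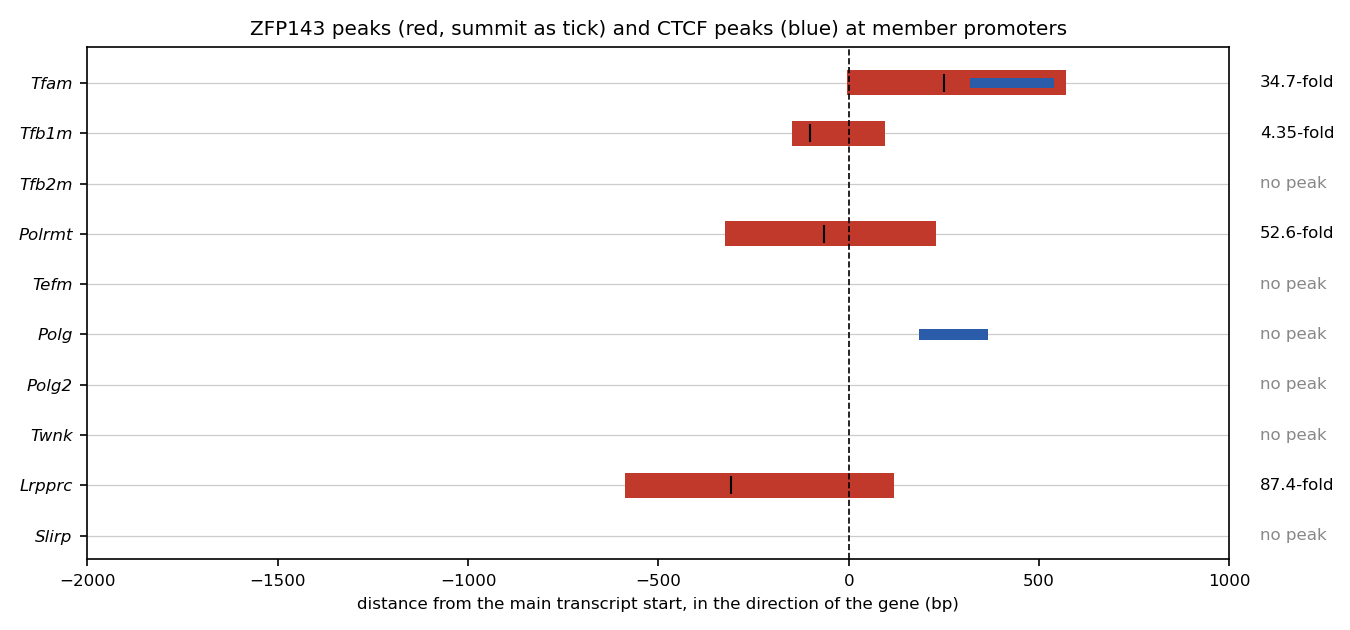
ZFP143 peaks (red, summit as a tick) and CTCF peaks (blue) at the promoters of the 10 genes, with the distance from the main transcript start in bp on the x axis and 1 row per gene. A ZFP143 peak is drawn for 4 genes, and at Tfam it overlaps a CTCF peak.

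At Tfam the ZFP143 peak also overlapped a peak of CTCF, the architectural zinc finger protein, at chr10:71237741-71237961, as did 221 of the 3189 ZFP143 peaks (6.93%). Polg, which had no ZFP143 peak, had a CTCF peak centred 275 bp downstream of its start. The Lrpprc gene held a weaker ZFP143 peak further inside (chr17:84736653-84736970, 11.2-fold). For the 6 genes without a promoter peak the nearest ZFP143 peak was farther away, with summits at -9040 bp for Polg2 and 28475 bp for Slirp as the closest.

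The sequence under the 4 summits is shown because the bound promoters differed in the letters they held. Each window has 150 bases around the summit, from the mm10 (GRCm38.p6) genome, 5′ to 3′ on the strand of the gene. Capitals mark matches on either strand to ACTACAA or CCCANNATG, which are parts of the known ZFP143 sites SBS2 and SBS1, to GCGCATGC, the site of the mitochondrial regulator NRF1, and to CCGGAAG, a core of the ETS family that includes GABPA.
Lrpprc, chr17:84790792-84790941, minus strand: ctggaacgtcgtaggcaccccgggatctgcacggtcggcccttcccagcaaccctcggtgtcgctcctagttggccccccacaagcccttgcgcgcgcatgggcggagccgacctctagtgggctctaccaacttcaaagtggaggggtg
Polrmt, chr10:79746570-79746719, minus strand: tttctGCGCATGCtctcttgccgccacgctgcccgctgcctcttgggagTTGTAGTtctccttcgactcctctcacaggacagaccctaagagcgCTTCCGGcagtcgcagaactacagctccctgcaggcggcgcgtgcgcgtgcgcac
Tfam, chr10:71237955-71238104, minus strand: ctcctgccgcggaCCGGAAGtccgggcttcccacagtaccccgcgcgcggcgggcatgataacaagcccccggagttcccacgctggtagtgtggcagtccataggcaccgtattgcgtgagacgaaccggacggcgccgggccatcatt
Tfb1m, chr17:3557808-3557957, minus strand: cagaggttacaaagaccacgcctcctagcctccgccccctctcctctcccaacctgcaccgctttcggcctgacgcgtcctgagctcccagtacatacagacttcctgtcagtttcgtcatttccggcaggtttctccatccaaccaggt

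Polrmt was the only one of the 4 with a ZFP143 string, ACTACAA, beside 1 NRF1 and 1 ETS string. Tfam held 1 ETS string, and Tfb1m and Lrpprc held none of the 4 strings anywhere in their peaks. Of all 3189 windows of 300 bp around summits, 39.9% held ACTACAA or CCCANNATG, against 7.87% of 32851 promoters of the same length (250 bases before to 50 after a start). ACTACAA alone was in 19.3% of windows and 3.24% of promoters, and CCCANNATG in 25.7% and 5.01%. GCGCATGC was in 3.86% and 2.71%, and CCGGAAG in 12.1% and 8.86%. These short exact strings allow no mismatch, so a missing match says only that the letters were not there.

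The reverse case is shown by a pair of unbound promoters that did hold such letters, the ZFP143 string CCCATTATG at Twnk, which also had 2 ETS strings outside the bases printed, and the NRF1 string at Tfb2m.
Twnk, chr19:45006270-45006419, plus strand: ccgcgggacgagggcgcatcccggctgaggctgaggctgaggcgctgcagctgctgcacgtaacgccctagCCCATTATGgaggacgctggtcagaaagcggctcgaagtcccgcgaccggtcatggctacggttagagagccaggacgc
Tfb2m, chr1:179546185-179546334, minus strand: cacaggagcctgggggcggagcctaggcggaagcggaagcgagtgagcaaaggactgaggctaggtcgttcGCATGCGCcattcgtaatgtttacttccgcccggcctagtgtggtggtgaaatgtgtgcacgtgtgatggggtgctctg
Of the other unbound promoters, Tefm, Polg and Polg2 each held 1 ETS string and Slirp held 3.

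In undepleted cells the 10 mRNAs spanned a wide range per length. In RNA-seq DMSO, Lrpprc was highest at 28.3 ± 1.21 CPM per kb of exon (SD, n = 2), followed by Tfam at 23.7 ± 0.805. Polg had 19.1 ± 0.771 and Tefm 18.3 ± 2.09, and the libraries of this pair overlapped. Slirp (13.9 ± 0.251) and Polrmt (13.9 ± 0.156) also overlapped, and Twnk had 12.9 ± 0.397. The lowest levels were those of Tfb1m (5.87 ± 0.667), Tfb2m (3.67 ± 0.230) and Polg2 (2.92 ± 0.248). The nascent signal per kb of whole gene in TT-seq DMSO was ordered differently, highest for Polg (5.88 ± 0.451 CPM per kb) and Twnk (4.17 ± 0.448) and lowest for Polrmt (1.73 ± 0.228) and Tfb1m (0.735 ± 0.0206), with Lrpprc only at 2.10 ± 0.283.

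Nascent transcription answers how early a loss of ZFP143 reached these genes. A TT-seq change was called at an adjusted p under 0.05 (edgeR quasi-likelihood test, Benjamini-Hochberg over all 17870 genes tested) with an absolute log2 change above 0.5. No member was called at 2 h, where 2.43% of all genes were called lower and 0.168% higher. None was called at 6 h (2.83% lower and 0.397% higher) or at 24 h (4.09% lower and 2.02% higher). At an unadjusted p under 0.05, 3, 4 and 1 members were lower at 2, 6 and 24 h and none was higher, and DESeq2 called 0 at each time. The study, which also tested with DESeq2, reports Tfam as downregulated at 2 h, unlike the DESeq2 run here. Same-numbered TT-seq libraries deviated together, and with the replicate number as a block 2 members were called lower at 2 h, 1 at 6 h and 1 at 24 h, where the genes called lower went from 435 to 662, from 506 to 956 and from 730 to 1214. Genes called higher went from 30 to 87, from 71 to 359 and from 361 to 1009. Without any 1 library of a comparison the genes called lower numbered 102 to 290 at 2 h, 109 to 309 at 6 h and 340 to 467 at 24 h, and no member was called. The signs leaned down, with 9, 10 and 10 of the 10 log2 changes below 0. Their medians were -0.24, -0.37 and -0.21, where the median of all tested genes was 0.01 at each time.

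Tfam came closest to the threshold. Its nascent level was 47.1 and 48.2 CPM in DMSO, 31.1 and 32.7 at 2 h, 35.8 and 33.6 after 6 h, and 34.9 and 31.5 at 24 h. All 6 depleted libraries lay below both DMSO libraries. The log2 change was -0.58 ± 0.13 (SE) at 2 h, a fold of 0.670 (adjusted p = 0.0601, edgeR), and -0.52 ± 0.13 at 24 h (adjusted p = 0.0505, edgeR). With the replicate block it was called lower at both times (adjusted p = 0.0184 and 0.0157, edgeR). Slirp showed the same order, with 28.4 and 33.1 CPM in DMSO, 19.7 and 22.0 at 2 h and 20.7 and 21.9 at 6 h. Its 2 h change was -0.56 ± 0.16 (adjusted p = 0.180, edgeR), at a gene with no ZFP143 peak, and at 24 h the libraries read 21.8 and 25.9 CPM. With the block Slirp was called lower at 2 and 6 h (adjusted p = 0.0356 and 0.0332, edgeR).

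The other bound genes moved less or varied more in nascent RNA. Tfb1m read 28.9 and 27.7 CPM in DMSO and 21.8 and 16.6 at 2 h, a log2 change of -0.56 ± 0.26 (adjusted p = 0.464, edgeR), and at 24 h its libraries of 28.5 and 19.5 overlapped DMSO. Tfb1m overlaps Tiam2 on the other strand over 12089 bp, where its reads rest on the split by strand. Polrmt had 19.8 and 16.4 CPM in DMSO and 16.8 and 17.2 at 2 h, which overlapped. Lrpprc had 162 and 197 CPM in DMSO and 141 and 146 at 2 h, a change of -0.32 ± 0.13 (adjusted p = 0.381, edgeR) that was -0.16 without the second DMSO library. The remaining genes, Tfb2m, Tefm, Polg, Polg2 and Twnk, had 2 h changes between -0.26 (Tfb2m) and 0.10 (Polg2), all with an adjusted p of 0.640 or more (edgeR).

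Between 2 and 24 h no member was called either, in a comparison that called 0.0560% of all genes lower and 0.0336% higher. None passed an unadjusted p under 0.05 and DESeq2 called 0. The members' changes lay between -0.22 (Polg2) and 0.32 (Tfb1m).

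**Figure D2:**
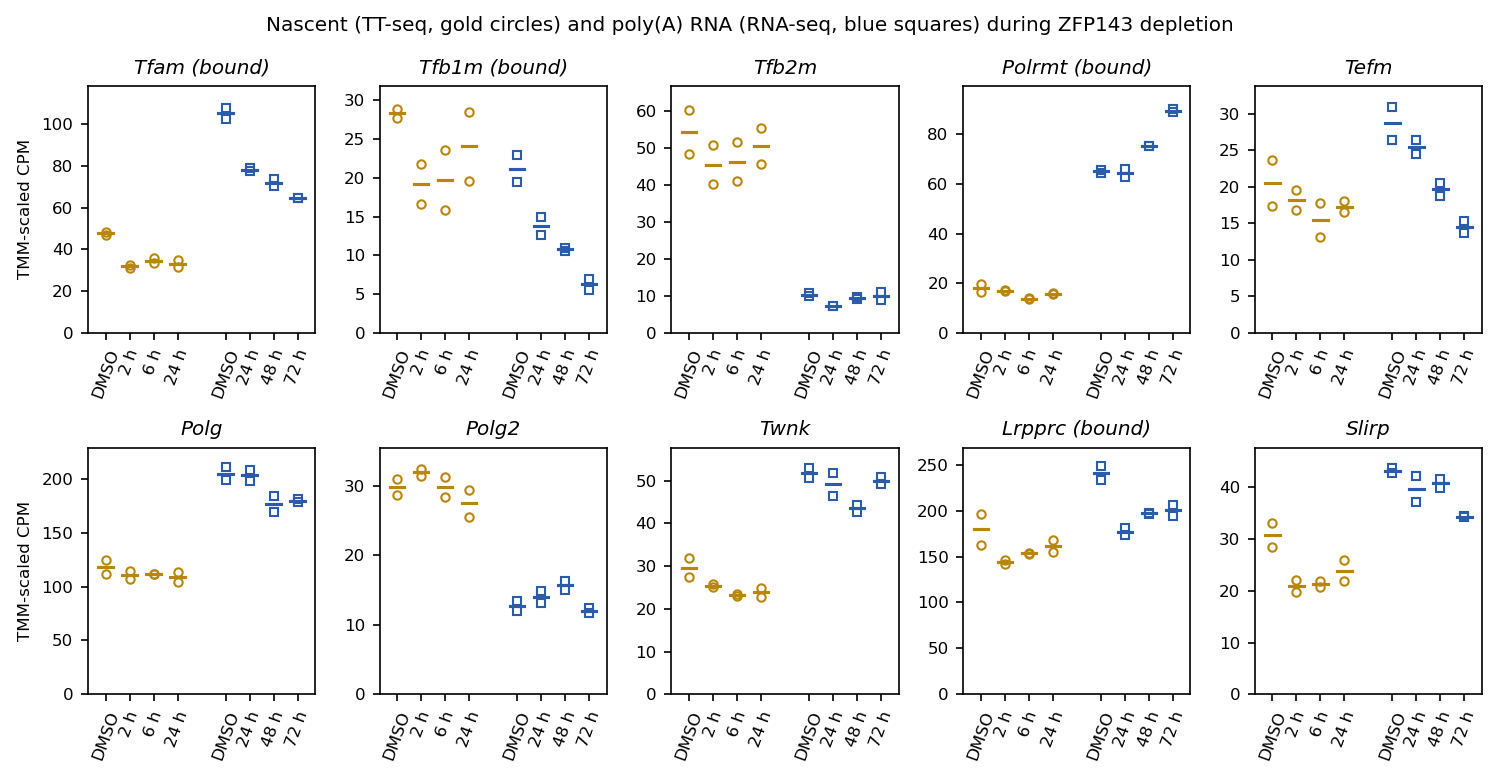
TMM-scaled CPM of each gene in every library (points) with group means (lines), for TT-seq (gold circles) and RNA-seq (blue squares) in DMSO and after the hours of dTAG-V1 on the x axis. In the RNA-seq, Tfb1m falls from 19.5 and 22.9 CPM in DMSO to 5.55 and 6.96 CPM at 72 h, while Polrmt lies at 90.1 and 89.0 CPM at 72 h against 65.7 and 64.6.

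In the time course of poly(A) RNA, Tfb1m and Tefm fell after longer depletion and no member was called higher. In bulk libraries fewer cells with a transcript and less of it per cell cannot be told apart. A change in RNA-seq was called when glmTreat, an edgeR test against a fold change of 1.5, gave an adjusted p under 0.01 over 13925 genes. At 24 h no member was called, where 3.41% of all genes were called lower and 2.32% higher. No member reached an unadjusted p under 0.05 in that test, and DESeq2 called 0. At 48 h Tfb1m alone was called lower (7.71% of all genes lower, 10.5% higher). At 72 h Tfb1m and Tefm were called lower (12.0% lower, 13.7% higher). These shares of 1 and 2 in 10 stood near those of all genes. The members' median log2 change was -0.15, -0.23 and -0.23 at 24, 48 and 72 h, beside medians of 0.02, 0.01 and 0.02 over all genes, and 9, 8 and 9 of 10 changes were below 0.

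The Tfb1m mRNA read 19.5 and 22.9 CPM in DMSO, 14.9 and 12.6 at 24 h, 10.6 and 11.0 after 48 h, and 5.55 and 6.96 at 72 h. Each later group lay wholly below the one before. The overlap with Tiam2 on the other strand bears on these counts too, since whether the RNA-seq counting used strand is not given in the sources used here. The log2 change was -0.63 ± 0.12 at 24 h (adjusted p = 0.945 against a fold of 1.5, and 0.000107 against no change, both edgeR), -0.99 ± 0.13 at 48 h (adjusted p = 0.00250, edgeR) and -1.75 ± 0.14 at 72 h (adjusted p = 4.79e-09, edgeR), a 3.36-fold lower level. The 48 h call was lost without the second DMSO library (adjusted p = 0.0539) or either 48 h library (0.0254 and 0.0124), in DESeq2 (0.205) and with library size alone (0.0738), while the 72 h call held under each alternative run for it. From 24 to 72 h the change was -1.12 ± 0.15 (adjusted p = 0.00133, edgeR), the only call among the members for that interval, where 6.60% of all genes were called lower and 7.53% higher. That call was lost without the first 24 h library (adjusted p = 0.0345), without the first 72 h library (0.0300) and in DESeq2 (0.0901).

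Tefm, whose promoter had no ZFP143 peak, read 26.4 and 31.0 CPM in DMSO, 26.5 and 24.4 at 24 h, 18.8 and 20.6 after 48 h, and 15.3 and 13.7 at 72 h. Its 24 h libraries overlapped DMSO and the later ones did not. The RA experiment did not repeat this fall. There the Tefm change with dTAG-V1 was 0.18 ± 0.12 before RA, with overlapping libraries, and 0.24 ± 0.13 after RA. Neither was called. After RA, at 48 h of depletion, it read 15.2 and 16.1 CPM against 12.2 and 14.5 in DMSO. The time course gave -0.55 ± 0.10 at 48 h, without RA. The reason for the opposite signs was not tested. In the time course the change at 72 h was -1.004 ± 0.105, a 2.01-fold lower level (adjusted p = 0.000237, edgeR). This call was lost without the second DMSO library (adjusted p = 0.0135), without the second 72 h library (0.0130), in DESeq2 (0.0300) and with library size alone (0.0318).

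Tfam mRNA was lower at each time without being called. It read 103 and 108 CPM in DMSO, 78.9 and 77.6 at 24 h, 70.3 and 73.6 after 48 h, and 64.8 and 64.7 at 72 h, with no overlap between any groups. The log2 change was -0.43 ± 0.06, -0.55 ± 0.06 and -0.70 ± 0.06 at 24, 48 and 72 h. At 72 h the adjusted p was 0.0207 against a fold of 1.5 and 5.98e-12 against no change (edgeR), so a difference from DMSO was clear and a fold beyond 1.5 was not. Across 24 libraries, each table centred on its own mean, the genes with the most similar log2 CPM to Tfam among 12811 were Zscan22 (r = 0.956), Pa2g4 (0.954) and Pprc1 (0.953), and libraries of 1 group share their treatment.

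Polrmt, also bound, had the largest positive change of the members at 72 h. Its mRNA read 65.7 and 64.6 CPM in DMSO, 62.8 and 66.0 at 24 h, 75.5 and 75.4 after 48 h, and 90.1 and 89.0 at 72 h. The first interval overlapped and the later groups lay above DMSO. The 72 h change of 0.46 ± 0.06 was under the fold of 1.5 (adjusted p = 1, against no change 4.27e-08, edgeR). The bound promoters of Tfb1m and Polrmt thus stood beside mRNA changes of opposite sign at 72 h.

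Lrpprc and its partner Slirp differed in timing. Lrpprc read 233 and 248 CPM in DMSO, 173 and 181 at 24 h, 197 and 197 after 48 h, and 195 and 206 at 72 h, so its lowest level was at 24 h (-0.45 ± 0.05, adjusted p = 7.27e-09 against no change, edgeR). Slirp read 43.7 and 42.6 CPM in DMSO, 42.0 and 37.0 at 24 h, 39.9 and 41.6 after 48 h, and 34.1 and 34.3 at 72 h, a last change of -0.33 ± 0.08 (0.000399 against no change, edgeR). Neither was called against a fold of 1.5. Slirp overlaps Snw1 on the other strand over 3132 bp, with the same limit as Tfb1m, and Lrpprc overlaps AC165360.1 over 3831 bp.

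The copying machinery, Polg, Polg2 and Twnk, was not called at any time. Polg read 211 and 199 CPM in DMSO, 184 and 169 after 48 h, and 178 and 181 at 72 h, changes of -0.21 ± 0.05 and -0.19 ± 0.05 (adjusted p = 0.000404 and 0.00133 against no change, edgeR). Polg2 read 11.9 and 13.5 CPM in DMSO and 16.25 and 15.05 after 48 h, above both DMSO libraries (0.29 ± 0.12, adjusted p = 0.0333 against no change, edgeR). Twnk read 50.7 and 53.0 CPM in DMSO and 44.3 and 42.7 after 48 h, below both (-0.25 ± 0.07, adjusted p = 0.00330 against no change, edgeR). At 72 h both genes overlapped DMSO, Polg2 at 11.7 and 12.3 CPM and Twnk at 49.1 and 50.9. Tfb2m, the promoter melting factor, was at 10.7 and 9.83 CPM in DMSO, 7.18 and 7.39 at 24 h, and 8.97 and 11.1 at 72 h, so its 24 h difference (-0.49 ± 0.15, adjusted p = 0.00895 against no change, edgeR) was not present at 72 h. Polg shares 4034 bp with Fanci, Twnk 780 bp with Mrpl43, Polg2 542 bp with Milr1 and Tfb2m 519 bp with the pseudogene Gm15480, all on the other strand.

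Scaling bears on the small changes. With library size alone in place of TMM, all tested genes had a median log2 change of 0.15, 0.21 and 0.23 at 24, 48 and 72 h, and the uncalled signs of Polrmt, Polg, Twnk and Slirp at 24 h, Tfb2m and Slirp at 48 h, and Tfb2m, Polg, Polg2 and Twnk at 72 h turned positive. Under that scaling Tfb1m at 72 h was still called, with a change of -1.53.

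**Figure D3:**
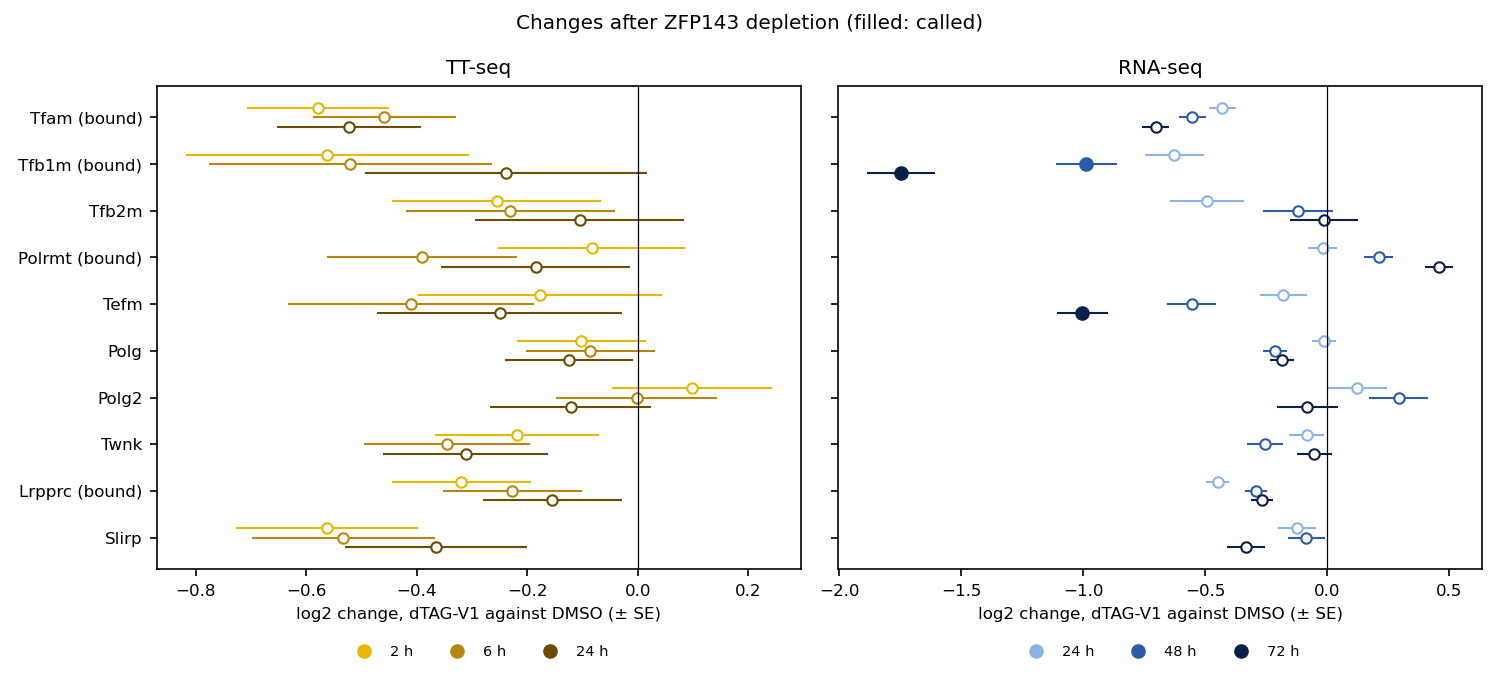
Log2 change of each gene after dTAG-V1 against DMSO (points, with SE bars) at 2, 6 and 24 h in TT-seq and 24, 48 and 72 h in RNA-seq, filled where called. No TT-seq point is filled, and the filled RNA-seq points are Tfb1m at 48 and 72 h (-0.99 and -1.75) and Tefm at 72 h (-1.004).

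The RA experiment repeated the 24 h depletion and set it beside an exit from the stem cell state. Before RA, dTAG-V1 called no member, where 3.66% of all genes were called lower and 2.74% higher (glmTreat over 15915 genes). No member reached an unadjusted p under 0.05 in that test, and DESeq2 called 0. Tfam read 101 and 96.0 CPM in DMSO and 67.4 and 66.6 in dTAG-V1, a change of -0.55 ± 0.08 (adjusted p = 5.11e-06 against no change, edgeR). Lrpprc read 314 and 335 against 218 and 217 CPM, a change of -0.58 ± 0.07 (1.62e-06 against no change, edgeR). Tfb1m read 21.7 and 20.5 CPM in DMSO and 15.7 and 16.2 in dTAG-V1. Tfam, Lrpprc and Tfb1m were thus lower at 24 h in both experiments, and 6 of the 10 genes had the same sign in both. Polg2, at 15.6 and 14.8 CPM against 10.4 and 12.8 in DMSO, had the largest positive change (0.39 ± 0.13).

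Several members were lower with RA. In DMSO 3 were called lower and 0 higher, where 18.1% of all genes were called lower and 25.8% higher. At an unadjusted p under 0.05, 5 were lower and 0 higher, and DESeq2 called 2 lower and 0 higher. The median of the members was -0.65 and that of all genes 0.03. In dTAG-V1 3 were also called lower and 0 higher, where 18.5% were called lower and 25.0% higher. There 4 members were lower and 0 higher at an unadjusted p under 0.05, DESeq2 called 3 lower and 0 higher, and the medians were -0.51 and 0.00. The embryonic stem cell markers were lower in the same libraries, and their part in the result was not tested.

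Lrpprc fell most in DMSO, from 314 and 335 CPM to 118 and 115 with RA (-1.48 ± 0.07, a 2.78-fold lower level, adjusted p = 5.93e-11, edgeR). In dTAG-V1 it fell from 218 and 217 to 107 and 122 CPM (-0.93 ± 0.07, adjusted p = 3.83e-05, edgeR). The libraries without RA were apart in DMSO and dTAG-V1, and those with RA overlapped. The call in dTAG-V1 was lost without the first dTAG-V1 library with RA (adjusted p = 0.0247) and with library size alone (0.745).

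Twnk, the helicase gene, fell alike in both arms. It went from 72.4 and 70.3 CPM to 29.2 and 31.2 with RA in DMSO (-1.24 ± 0.08, adjusted p = 5.24e-08, edgeR). In dTAG-V1 it went from 72.5 and 70.9 to 30.1 and 33.1 CPM (-1.18 ± 0.08, adjusted p = 1.34e-07, edgeR). The difference of these effects was 0.06 ± 0.12 (adjusted p = 0.711, edgeR). Mrpl43, a ribosomal protein gene that starts 116 bp away on the other strand, fell as well, from 70.3 and 73.8 CPM to 32.1 and 38.9 in DMSO (-1.03) and from 67.1 and 68.7 to 29.4 and 27.5 in dTAG-V1 (-1.26).

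Slirp fell in dTAG-V1 with RA, from 58.3 and 52.3 CPM to 25.7 and 24.8 (-1.13 ± 0.09, adjusted p = 3.17e-06, edgeR), a call lost with library size alone (0.0399). Slirp in DMSO went from 56.1 and 47.9 to 36.6 and 38.2 CPM, a change of -0.48 ± 0.09 that was not called. Tfb2m fell in DMSO with RA, from 9.40 and 11.0 CPM to 5.56 and 4.84 (-0.95 ± 0.16, adjusted p = 0.00875, edgeR). Polrmt in DMSO (-0.75 ± 0.08, adjusted p = 0.0131, edgeR) was not called, but was called with DESeq2 size factors (0.00878) and without the first DMSO library (0.00948). The Tfb2m call was lost in DESeq2 (0.160), with library size alone (0.295), and without the second DMSO library (0.0578) or either DMSO library with RA (0.0177 and 0.0780).

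After RA, dTAG-V1 against DMSO again called no member, where 7.36% of all genes were called lower and 9.10% higher. No member had an unadjusted p under 0.05 and DESeq2 called 0. The largest changes were Polrmt at 0.62 ± 0.08 (74.4 and 69.3 CPM against 47.7 and 45.4) and Slirp at -0.56 ± 0.10 (25.7 and 24.8 against 36.6 and 38.2). Tfb1m read 13.7 and 11.6 CPM against 14.8 and 17.6. With 1 library left out at a time, the Tfb1m change lay between -0.47 and -0.21. At 48 h in the time course the same range was -1.09 to -0.86. With library size alone Polrmt was called, with a change of 0.83 (adjusted p = 0.00236, edgeR).

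Whether the RA effect differed in depleted cells was tested as the RA effect in dTAG-V1 minus that in DMSO. The dTAG-V1 libraries had 24 h of depletion without RA and 48 h with it. This difference therefore also holds a second day of depletion, which cannot be told apart from RA. By the quasi-likelihood rule used for TT-seq, Polrmt and Lrpprc were called higher and Slirp and Polg2 lower, 2 and 2 of 10, where 18.0% of all genes were called lower and 13.7% higher. Polrmt went with RA from 76.9 and 79.8 CPM to 47.7 and 45.4 in DMSO, but from 67.2 and 65.4 to 74.4 and 69.3 in dTAG-V1. The difference was 0.87 ± 0.11 (adjusted p = 1.88e-06, edgeR). For Lrpprc it was 0.55 ± 0.10 (adjusted p = 0.000236, edgeR), whose DMSO and dTAG-V1 libraries lay apart before RA and overlapped after it. Without the filter on low counts the Lrpprc difference was 0.50, no longer past the threshold of 0.5. For Slirp it was -0.65 ± 0.13 (adjusted p = 0.000493, edgeR).

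Polg2 was the least stable of these, with a difference of -0.53 ± 0.18 (adjusted p = 0.0245, edgeR) at 10.4 and 12.8 CPM in DMSO, 13.8 and 12.7 with RA, 15.6 and 14.8 in dTAG-V1 and 12.6 and 11.6 with RA. Its call was lost with DESeq2 size factors (-0.47), in DESeq2 (adjusted p = 0.117), with library size alone (-0.45), and without the first library of any of the 4 groups or the second dTAG-V1 library with RA (adjusted p = 0.0519 to 0.127). Tfam (0.39 ± 0.11, adjusted p = 0.00545, edgeR) and Polg (-0.44 ± 0.10, adjusted p = 0.00133, edgeR) passed on p and not on size, although Tfam reached 0.51 without the second dTAG-V1 library with RA. Tfam read 64.4 and 68.4 CPM with RA in DMSO and 61.8 and 56.9 with RA in dTAG-V1, so the gap seen before RA was smaller after it. Tested against a fold of 1.5 at 0.01, no member's difference was called.

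**Figure D4:**
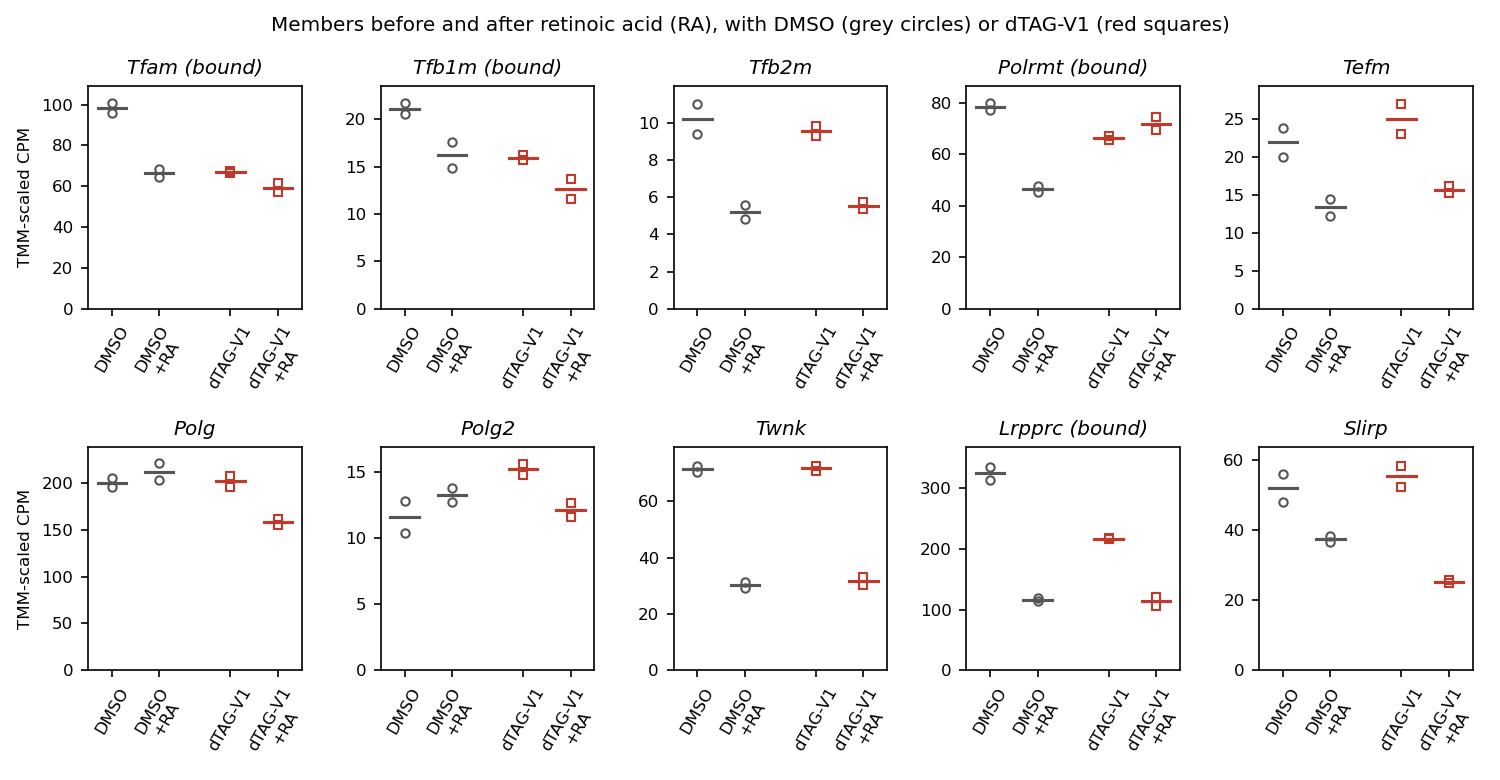
TMM-scaled CPM of each gene in every library (points) and group means (lines) before and after RA, with DMSO (grey circles) and dTAG-V1 (red squares). Polrmt falls with RA to 47.7 and 45.4 CPM in DMSO and stays at 74.4 and 69.3 CPM in dTAG-V1, and Lrpprc and Twnk are lower with RA in both.

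Among the genes themselves, levels over the 24 libraries, each table centred on its own mean, were most alike for Twnk and Lrpprc (r = 0.891), Tfb2m and Lrpprc (0.878) and Tfam and Tfb1m (0.815), and least for Polrmt and Polg (-0.394). These points share treatments and libraries and are given as a description.

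4 of the 10 genes start within 1000 bp of a gene on the other strand. At Slirp this is Alkbh1, 22 bp away, which rose at 48 h in the RNA-seq from 55.9 and 55.0 CPM to 98.0 and 101 (0.85, adjusted p = 0.000113, edgeR), while Slirp itself read 39.9 and 41.6 against 43.7 and 42.6. The Alkbh1 changes of 0.36 at 24 h and 0.63 at 72 h were not called (adjusted p = 1 and 0.240, edgeR). At Tfb2m it is Cnst, 103 bp away, at 36.8 and 33.9 CPM in DMSO and 37.5 and 37.6 at 72 h. At Tfb1m it is the non-coding gene 1700102H20Rik, 43 bp away, which shares the ZFP143 peak and was under 1 CPM in every RNA-seq library of both experiments.

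Other nuclear genes of the pathway, from lists of upkeep and copying of mitochondrial DNA, processing and decay of its RNA, termination and pausing, and nuclear regulators, held ZFP143 peaks at 5 of 19, 6 of 24, 0 of 7 and 4 of 11 promoters. In TT-seq at 2 h, 2 of 24 processing genes fell, Fastkd1 (-2.01, adjusted p = 0.00516, edgeR) and Fastk (-1.39, adjusted p = 0.00964, edgeR), both RNA-binding FASTK proteins with a bound promoter, beside 2.43% of all genes lower. At 6 and 24 h 2 of 24 were again called lower, beside 2.83% and 4.09% of all genes. The upkeep list had 0, 0 and 1 of 19 lower at 2, 6 and 24 h (2 and 3 at an unadjusted p under 0.05 and 0 in DESeq2 at the first pair of times), and the termination list 0 of 7 at each time (1 at an unadjusted p under 0.05 and 0 in DESeq2). Of 10 regulators, Pprc1, a coactivator of the PGC-1 family with a bound promoter, fell (-1.48, adjusted p = 0.000759, edgeR) and Zfp143 rose. These early changes were larger than that of any of the 10 genes at 2 h.

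In RNA-seq the processing list had 3, 4 and 5 of 24 members lower at 24, 48 and 72 h, where the shares of all genes called lower were 3.41%, 7.71% and 12.0%. Fastkd1 (-1.56) and the exonuclease gene Rexo2 (-1.28) led at 24 h. The upkeep list had 0, 2 and 3 of 18 lower at these times and 1 higher at 72 h, led by Dna2, a nuclease and helicase gene with no ZFP143 peak, at -1.69 ± 0.06 at 72 h (adjusted p = 4.27e-17, edgeR). The counts of the upkeep list stood near the shares of all genes, of which 13.7% were higher at 72 h. For the count of 0 at 24 h, 0 had an unadjusted p under 0.05 and DESeq2 called 0. Regulators had 1, 1 and 3 of 10 lower and 1 higher at each time, Pprc1 reaching -2.02 ± 0.04 at 72 h. None of the 7 termination genes was called at any of the 3 times (0 with an unadjusted p under 0.05, and 0 in DESeq2).

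With RA in DMSO, 17 of 24 processing genes fell, among them Fastkd5 (-1.94), and 3 of 7 termination genes fell, Mrpl12 most (-1.21), beside 18.1% of all genes lower and 25.8% higher. Of 19 upkeep genes 6 fell and 3 rose, with a median of -0.23. The processing and termination medians of -0.99 and -0.80 lay below that of all genes, 0.03. The difference of the RA effect was called higher for 4 and lower for 1 of 24 processing genes, led by Fastkd1 (1.71) and Fastk (1.52), and higher for 2 and lower for 3 of 19 upkeep genes, where 13.7% of all genes were called higher and 18.0% lower. Top3a (0.94), a topoisomerase gene with a bound promoter, and Ssbp1 (-0.74), which codes for the mitochondrial single-strand binding protein, had the largest changes called in each direction among the latter.

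The mRNAs encoded by mitochondrial DNA itself, of which 7 of 13 could be tested, were called lower for 0, 0 and 6 genes in TT-seq at 2, 6 and 24 h (0 and 0 at an unadjusted p under 0.05, and 0 in DESeq2, at the first pair of times) and for 2, 5 and 6 in RNA-seq at 24, 48 and 72 h. The shares of all genes called lower were 4.09% in TT-seq at 24 h and 3.41%, 7.71% and 12.0% in the RNA-seq. DESeq2 called 0 of the 7 at 24 h in RNA-seq and 5 at each later time. All genes on mitochondrial DNA together, not these mRNAs alone, took 1.72% and 1.92% of counts in RNA-seq DMSO and 0.760% and 0.768% at 72 h. In the repeat of the 24 h depletion before RA, 0 of 7 were called (0 at an unadjusted p under 0.05, and 0 in DESeq2). All 7 changes were below 0 there, with a median of -0.39 beside 0.06 over all genes. The share of counts from all genes on mitochondrial DNA overlapped, at 2.08% and 1.65% in DMSO and 1.64% and 1.69% in dTAG-V1. After RA all 7 changes of dTAG-V1 against DMSO were below 0 and 6 were called lower (5 in DESeq2), with a median log2 change of -1.95 (7.36% of all genes lower). The share of all genes on mitochondrial DNA was then 0.397% and 0.394% against 1.62% and 1.81%.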

How the data were processed

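The authors deposited raw counts of reads per gene on mm10, made with STAR and GENCODE vM25 annotation, with HTSeq over whole genes and split by strand for TT-seq and with the counting mode of STAR for both RNA-seq tables. The ZFP143 peaks deposited by the authors come from MACS2 against input, as 1 list without replicates, with the fold enrichment (a ratio) and −log10 of the q value; the CTCF list gives positions.

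Counts were analysed with edgeR 4.0.16 (R 4.3.3), with TMM scaling and 1 fit per table of 4 groups of 2 libraries. A gene entered the test when 4 or more of the 8 libraries had over 10 counts, and p-values were adjusted after Benjamini and Hochberg over all of them. TT-seq and the difference of RA effects used the quasi-likelihood test (adjusted p under 0.05, absolute log2 change above 0.5), and RNA-seq contrasts used glmTreat (fold 1.5, adjusted p under 0.01). DESeq2 1.42.0, other scalings, no filter, the replicate number as a block and each library left out were alternatives. The code was tested on simulated counts. CPM are TMM-scaled. Symbols and positions are from GENCODE vM21, which lacked 260 of the IDs. The genes, lists and tests were chosen with earlier results of these data known. All 10 genes were reported; of each list at most the 2 called genes with the largest change were named per comparison, with neighbours within 1000 bp and the 3 genes most like Tfam. Among the members the standard error was widest for Tfb2m in the RNA-seq and for Tfb1m in TT-seq. Deviations from the group means correlated at 0.205 to 0.651 over genes between same-numbered TT-seq libraries in all 6 pairs of groups. The pairing comes from these values, as no source says that a number marks a shared batch, and calls that the block changed stand beside the TT-seq results.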

Additional observations from a re-analysis of the deposited data

Results flagged for a closer look

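In 5 cases an effect differed between conditions by a test of the difference itself. The RA effect in dTAG-V1 minus that in DMSO (log2, edgeR) was 0.867 for Polrmt, 0.550 for Lrpprc, -0.651 for Slirp and -0.528 for Polg2. In dTAG-V1 the RA effect also holds a second day of depletion. The Polrmt libraries with RA lay at 74.4 and 69.3 CPM in dTAG-V1 and at 47.7 and 45.4 CPM in DMSO. The Polg2 difference was lost under 9 of its alternatives. For Tfb1m the RNA-seq level at 72 h differed from that at 24 h by -1.12, with libraries of 5.55 and 6.96 CPM against 14.9 and 12.6. Groups of 2 libraries are too small to test for a library that stands apart.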

How the results depend on the processing

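Over all pairs of a single-gene result and an alternative, 1228 kept direction and call, 33 lost a call, 22 gained one and 57 changed sign, none of the latter a called change. Precision is limited by 2 libraries a group. In the RNA-seq time course counts were lowest for Tfb1m (60 to 321), Tfb2m (81 to 163) and Polg2 (127 to 203). In TT-seq they were lowest for Polrmt (162 to 286). The part of counts in the precision was not tested.

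With library size alone the sign changed for Polg in TT-seq from 2 to 24 h (0.0396); in RNA-seq at 24 h for Polrmt (0.11), Polg (0.12), Twnk (0.0493) and Slirp (0.0101), at 48 h for Tfb2m (0.0806) and Slirp (0.12), and at 72 h for Tfb2m (0.21), Polg (0.0335), Polg2 (0.14) and Twnk (0.17). It also changed for dTAG-V1 before RA for Tfb2m (0.0413), after RA for Tfam (0.0476), Polg2 (0.0752) and Lrpprc (0.18), and for RA in dTAG-V1 for Tfam (0.22), Tfb1m (0.0537), Polg (0.0396) and Polg2 (0.0652). Members called lower were then 0 at 48 h, 1 at 72 h, 1 for RA in dTAG-V1 and 1 for the difference of RA effects, and 1 was called higher for dTAG-V1 after RA. Over all genes the calls lower and higher were then 385 and 495 at 24 h (475 and 323 with TMM), 698 and 2047 after 48 h (1073 and 1456), 1109 and 2736 at 72 h (1677 and 1912), 720 and 1264 from 24 to 72 h (919 and 1048), 481 and 626 before RA (583 and 436), 762 and 2089 after RA (1171 and 1449), 1710 and 5164 for RA in DMSO (2877 and 4113) and 1518 and 5447 for RA in dTAG-V1 (2939 and 3980). Medians of all genes were 0.20, 0.21, 0.35 and 0.39 in the RA experiment.

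DESeq2 called 0 members lower at 48 h, 1 at 72 h, 0 from 24 to 72 h and 1 for the difference, and gave -0.0154 for Polg and -0.0219 for Twnk before RA. Its size factors in edgeR gave -0.0154 and -0.0220 there and left 1 lower for the difference. The quasi-likelihood rule called 1 lower at 24 h, 3 at 48 h, 3 at 72 h (Tfb1m, Tefm and Tfam), 2 from 24 to 72 h, 2 before RA, 1 lower and 1 higher after RA, 6 for RA in DMSO and 5 for RA in dTAG-V1. Against a fold of 1.5 the difference had 0 lower and 0 higher, and without the filter 1 higher. By longest transcript 6 of 10 ranks of levels were kept in each RNA-seq table. Promoter peaks were 4 within 500 bp or by gene start, and 3 among stronger peaks. Counts over all genes moved most from 2 to 24 h in TT-seq, from 10 lower and 6 higher to 195 and 229 in DESeq2, 390 and 572 with the block, 490 and 820 without the filter, and 0 and 0 without any 1 of its libraries. At 2 h in TT-seq, 435 and 30 became 774 and 162 without the filter and 70 and 5 against a fold of 1.5, and at 72 h in RNA-seq 1677 and 1912 became 3066 and 3398 by the quasi-likelihood rule and 1156 and 1123 in DESeq2. In DESeq2, 475 and 323 at 24 h in RNA-seq became 335 and 102, and 583 and 436 before RA became 474 and 143.

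With the replicate number as a block, 2 members were called lower in TT-seq at 2 h (Tfam, adjusted p = 0.0184, and Slirp, 0.0356, edgeR), 1 at 6 h (Slirp, 0.0332) and 1 at 24 h (Tfam, 0.0157), as given beside those results. Same-numbered libraries correlated at -0.0456 to 0.0600 in RNA-seq and -0.146 to 0.167 in the RA experiment. What libraries of the same number shared there is not given. The block changed no member count in the RNA-seq tables.

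Leaving out 1 library at a time, ranges that crossed 0 in TT-seq were -0.20 to 0.0507 (Polrmt) and -0.38 to 0.0834 (Tefm) at 2 h, -0.0709 to 0.0653 (Polg2) at 6 h, and -0.53 to 0.0223 (Tfb1m), -0.26 to 0.0834 (Tfb2m), -0.46 to 0.0084 (Tefm) and -0.29 to 0.0065 (Lrpprc) at 24 h. From 2 to 24 h they were -0.0202 to 0.13 (Tfam), -0.0059 to 0.33 (Tfb2m), -0.17 to 0.0354 (Tefm) and -0.0834 to 0.0390 (Polg). In RNA-seq they were -0.0524 to 0.0192 (Polrmt) and -0.0554 to 0.0282 (Polg) at 24 h, -0.19 to 0.11 (Tfb2m) and -0.16 to 0.0143 (Polg2) at 72 h, and -0.0513 to 0.11 (Twnk) from 24 to 72 h. In the RA experiment they were -0.21 to 0.0258 (Tfb2m), -0.0248 to 0.0591 (Polg), -0.0106 to 0.0286 (Twnk) and -0.0190 to 0.21 (Slirp) before RA, -0.11 to 0.0918 (Lrpprc) after RA, and -0.0576 to 0.22 (Tfb1m) and -0.0730 to 0.19 (Tefm) for the difference. Members called lower ranged from 0 to 1 at 48 h, 1 to 2 at 72 h, 0 to 1 from 24 to 72 h, 2 to 4 for RA in DMSO, 2 to 3 for RA in dTAG-V1 and 1 to 2 for the difference, where 2 to 3 were called higher. The cause of these changes was not tested.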
